A study of Rattus norvegicus with 47 samples.

Results

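Extracellular ATP and adenosine signal through a small set of membrane proteins, and 10 of their genes were followed here in rat blood: the ectonucleotidases Entpd1 and Nt5e, the deaminase Ada, the adenosine receptors Adora2a, Adora2b and Adora3, the ATP-gated channels P2rx1, P2rx4 and P2rx7, and the nucleotide receptor P2ry2. They were taken by gene symbol out of the 20935 symbols of the expression table, with 1 probe set for each, and where a symbol had several the probe set with the highest mean over the time points was used. All 10 were on the array, and no filter on low values was applied, so all 10 are described. Blood mRNA was measured in 8 male spontaneously hypertensive (SHR) rats, 16 weeks old, on 47 arrays. The groups were 0 h, drawn before anesthesia, and 1, 2, 3, 6 and 24 h after the middle cerebral artery (MCA) was occluded with a thread, with 8 arrays in each group but 7 at 6 h. All later groups share the occlusion, its anesthesia and the repeated blood sampling, and the artery was reopened under renewed anesthesia between the 1 h and 2 h samples. The only control is the 0 h sample, so occlusion, surgery, anesthesia and repeated sampling cannot be told apart. The 24 h blood was taken from the heart under an anesthetic overdose and all earlier blood from a tail vein, so the last time point and the sampling site cannot be told apart either. The model is a temporary occlusion in 1 inbred strain and 1 sex.

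ATP leaks or is released from stressed and dying cells and acts as a danger signal on P2X channels, which open when ATP binds, and on P2Y receptors, which couple to G proteins. The ectoenzyme encoded by Entpd1 (CD39) removes phosphates from ATP and ADP to give AMP, and the enzyme encoded by Nt5e (CD73) turns AMP into adenosine. Adenosine then acts on its own G protein-coupled receptors, some of which restrain white blood cells when stimulated, until it is taken up or converted to inosine by adenosine deaminase. In blood these proteins are found on neutrophils, monocytes, lymphocytes and platelets.

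The test over the time course was passed by 7 genes and not by 3, beside 55.5% of all probe sets. Entpd1, Nt5e, P2rx4 and P2ry2 rose, Adora2a fell at every later time point, and P2rx1 rose at 1 h, fell back and was high again at 24 h. Ada changed little, and Adora2b, Adora3 and P2rx7 did not pass the time course test. The largest rise was that of Nt5e, 2.76-fold at 2 h, and the largest fall was that of Adora2a, 1.54-fold at 6 h. The signal is the log2 RMA value, so a difference of 1 is a change of 2-fold, and each level below is the mean that the authors deposited for a time point. Values of single rats were not used, because no label ties the numbered single-array columns of the table to a rat or time, so the overlap of single rats between time points is not known and the deposited SDs stand in for it. False discovery rates (FDR) come from a limma model with Benjamini-Hochberg adjustment over all 27596 probe sets.

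The sequence just upstream of the start of transcription is shown for the 3 genes with the largest changes, because Entpd1 and Nt5e were both called higher from 1 h on and P2ry2 from 2 h on. The sequences are from RefSeq on the rat build GRCr8, 250 bases long, read 5′ to 3′ on the strand of the gene and ending at the base before the annotated start. Capitals mark the core letters ACGTG or GCGTG, or their reverse complements, which are bound by the hypoxia-inducible factors (HIF). The Entpd1 window is chr1:249422614-249422863 on the plus strand, that of Nt5e chr8:98150675-98150924 on the plus strand and that of P2ry2 chr1:164779489-164779738 on the minus strand.
Entpd1: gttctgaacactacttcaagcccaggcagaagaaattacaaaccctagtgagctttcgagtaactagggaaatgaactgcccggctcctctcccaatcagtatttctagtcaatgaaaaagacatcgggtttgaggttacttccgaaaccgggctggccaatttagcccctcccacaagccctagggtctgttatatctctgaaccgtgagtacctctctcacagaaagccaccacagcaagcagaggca
Nt5e: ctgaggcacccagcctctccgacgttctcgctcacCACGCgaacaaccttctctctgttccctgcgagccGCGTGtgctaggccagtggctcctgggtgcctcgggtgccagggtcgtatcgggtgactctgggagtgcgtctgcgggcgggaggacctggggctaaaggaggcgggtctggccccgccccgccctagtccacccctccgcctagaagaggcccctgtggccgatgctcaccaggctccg
P2ry2: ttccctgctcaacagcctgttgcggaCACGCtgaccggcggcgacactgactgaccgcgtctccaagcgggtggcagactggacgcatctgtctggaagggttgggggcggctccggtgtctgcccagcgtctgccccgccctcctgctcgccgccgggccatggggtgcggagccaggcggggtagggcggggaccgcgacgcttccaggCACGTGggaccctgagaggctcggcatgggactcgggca

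The Entpd1 window held no HIF core, the Nt5e window held 2 and the P2ry2 window held 3, of which a pair overlap in the palindrome CACGTG. The windows differed in base composition, with 48.8% G and C in Entpd1, 68.8% in Nt5e and 71.2% in P2ry2. Of the 9 genes with a RefSeq window, 4 held the HIF core, namely Ada, Adora2b, Nt5e and P2ry2, beside 36.7% of all 33465 rat windows of the same length. These 4 genes had unlike time courses, since Adora2b passed no test. The letters TGACG, bound by CREB, were found in P2rx4 alone (18.2% of all windows), and the letters GAGGAA, bound by PU.1, in Adora2b, Adora3, P2rx4 and P2rx7 (23.3% of all windows). The letters TTGCNNAA of C/EBP (9.22% of all windows) and AGAACA of the glucocorticoid receptor (17.5% of all windows) were found in 0 of the 9. All motifs were searched on both strands, and a match is a description of the letters only.

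Nt5e had the largest change of the 10 genes. The table places it at chr8:95464241-95508322 on the plus strand of the build rn5. The mean signal of Nt5e at 0, 1, 2, 3, 6 and 24 h was 8.51, 9.78, 9.98, 9.81, 9.60 and 9.14. Its deposited SDs lay between 0.162 and 0.244 on the same scale, so every later mean stood more than 2 SDs above the 0 h mean. The rise was already 2.41-fold at 1 h (log2 change 1.27, SE 0.0992, FDR 6.1e-14) and reached 2.76-fold at 2 h (1.46, FDR 7.33e-17). The means at 1, 2, 3 and 6 h did not pass the test from each time point to the next (FDR 0.247, 0.414 and 0.292). By 24 h Nt5e had fallen from its 6 h level by 0.46 (FDR 6.73e-04), and 42.9% of its largest log2 change remained (0.63 above 0 h, FDR 4.1e-06).

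Entpd1, which acts one step before Nt5e, rose by a similar course. Its position is chr1:267183176-267259665 on the plus strand (rn5). The mean signal of Entpd1 at 0, 1, 2, 3, 6 and 24 h was 10.54, 11.36, 11.62, 11.49, 11.66 and 11.15, with deposited SDs of 0.136 to 0.236. It was 1.76-fold higher at 1 h (log2 change 0.82, SE 0.0893, FDR 6.77e-10), 2.11-fold higher at 2 h and 2.16-fold higher at 6 h (1.11, FDR 4.94e-14). The 2 h and 6 h means, its highest, lay closer together than the SD of either. The step from 1 h to 2 h, a further 0.26, missed the threshold narrowly (FDR 0.0554). It passed with centring (FDR 0.0370), with quantile normalized means (FDR 0.0435), without the lowest 25% of probe sets (FDR 0.0449) and with the variance of 1 h and 2 h alone (FDR 0.0479). Entpd1 then fell by 0.51 between 6 h and 24 h (FDR 3.61e-05), with 54.3% of its largest log2 change left at 24 h (0.60 above 0 h, FDR 1.24e-06). Both ectoenzymes were thus called higher at all 5 later time points and called lower at the step from 6 h to 24 h.

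Ada, which removes the adenosine that the ectoenzymes produce, changed much less. Its probe set lies at chr3:166306001-166330108 on the minus strand (rn5). Its mean signal at 0, 1, 2, 3, 6 and 24 h was 7.82, 7.96, 8.08, 8.00, 7.94 and 7.62, with deposited SDs of 0.145 to 0.224. Ada was called higher at 2 h alone, by 0.26 (FDR 0.0158), little more than 1 SD. It stood 0.20 below the 0 h mean at 24 h, which missed the threshold (FDR 0.0773), and its step from 6 h to 24 h was a fall of 0.33 (FDR 0.00698). With each time point centred on its median the 24 h value passed (FDR 0.0363), and with the means quantile normalized so did 3 h (FDR 0.00899) and 6 h (FDR 0.0366).

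**Figure D1:**
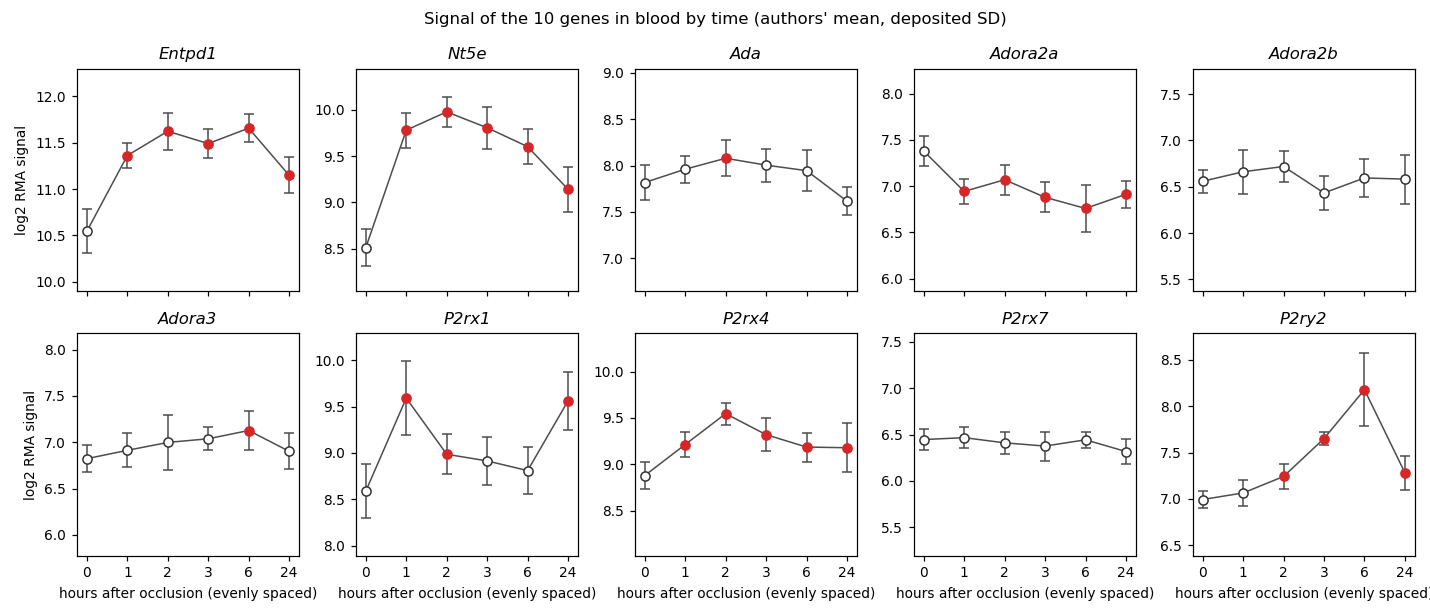
Signal of the 10 genes at each time point on the log2 RMA scale (y axis, the same range in every panel) against hours after occlusion (x axis, evenly spaced and not to scale). Points are the deposited means, bars the deposited SDs, and red points differ from 0 h at FDR below 0.05; Entpd1 and Nt5e are high from 1 h on, P2ry2 peaks at 6 h with a wide bar, P2rx1 is high at 1 h and 24 h, and Adora2a is below its 0 h mean at all later time points.

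Of the adenosine receptors only Adora2a passed the time course test, and it fell. The product of Adora2a raises cyclic AMP and restrains activation of neutrophils and T cells. The table places it at chr20:16449383-16466147 on the minus strand (rn5). The mean signal of Adora2a at 0, 1, 2, 3, 6 and 24 h was 7.38, 6.94, 7.07, 6.88, 6.76 and 6.91, with deposited SDs of 0.136 to 0.256, the widest at 6 h. All 5 later means were lower than the 0 h mean, by 0.31 at 2 h (FDR 0.00295) to 0.62 at 6 h (SE 0.0881, FDR 1.18e-07). No step between neighbouring later time points was called, and 75.4% of the largest log2 change was still present at 24 h (FDR 4.14e-05).

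Adora2b encodes a receptor of lower affinity for adenosine. Its position is chr10:48358068-48374871 on the plus strand (rn5). Its mean signal was 6.56 at 0 h and between 6.43 and 6.72 later, with deposited SDs of 0.122 to 0.266. No comparison with 0 h passed, the largest being 0.16 at 2 h (95% interval -0.04 to 0.36, FDR 0.192), and its time course FDR was 0.147. The sign of its changes at 6 h and 24 h, 0.04 and 0.02, turned to -0.00477 and -0.0230 when the means were quantile normalized, and at 24 h to -0.0180 with centring, so these signs carry no information.

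Adora3 encodes an adenosine receptor that lowers cyclic AMP. Its mean signal at 0, 1, 2, 3, 6 and 24 h was 6.82, 6.91, 7.00, 7.04, 7.13 and 6.90, with deposited SDs of 0.122 to 0.301. Adora3 was called at 6 h only, 0.30 higher (FDR 0.0136), and its time course test did not pass (FDR 0.0894). This probe set spans 78.6 kb on the plus strand at chr2:227900016-227978572 (rn5) and holds within it a second Adora3 probe set of 3.6 kb, at chr2:227952342-227955985. The second probe set was not called at 6 h (0.08, FDR 0.393) but at 1 h (0.18, FDR 0.0477), and its changes at 3 h and 24 h were -0.000719 and -0.0159, against 0.21 and 0.08 for the first. The 2 probe sets therefore did not give the same time point for Adora3.

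The P2X channels followed 3 different courses. P2rx1, best known as the ATP-gated channel of platelets, had a course with a high at each end. Its probe set lies at chr10:59305745-59320799 on the plus strand (rn5). The mean signal of P2rx1 at 0, 1, 2, 3, 6 and 24 h was 8.59, 9.59, 8.99, 8.91, 8.81 and 9.56, with deposited SDs of 0.217 to 0.397, the widest at 1 h. It was 2.01-fold higher at 1 h (log2 change 1.00, SE 0.141, FDR 2.37e-07) and 1.96-fold higher at 24 h (0.97, FDR 7.91e-07). Between these it fell by 0.61 from 1 h to 2 h (FDR 0.00291) and rose by 0.75 from 6 h to 24 h (FDR 9.48e-05). The 2 h mean was still above 0 h (0.40, FDR 0.0210), and the 3 h mean missed the threshold narrowly (0.33, FDR 0.0533), passing it when the lowest 25% of probe sets were left out (FDR 0.0478), when the means were quantile normalized (FDR 0.0144) or when the variance came from 0 h and 3 h alone (FDR 0.0377). P2rx1 was the only one of the 10 whose step from 6 h to 24 h, where the sampling site also changed, was called higher.

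P2rx4, a channel of monocytes, macrophages and microglia, rose modestly and stayed up. The table places it at chr12:41196777-41214428 on the minus strand (rn5). The mean signal of P2rx4 at 0, 1, 2, 3, 6 and 24 h was 8.88, 9.21, 9.55, 9.32, 9.18 and 9.18, with deposited SDs of 0.120 to 0.267. All 5 later time points were called higher, from 0.30 at 24 h (FDR 0.00622) to 0.67 at 2 h (1.59-fold, SE 0.0852, FDR 1.00e-08). The further rise from 1 h to 2 h was called too (0.33, FDR 0.00733). P2rx4 kept 44.9% of its largest log2 change at 24 h.

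P2rx7, the channel whose opening by high ATP drives release of interleukin-1β from myeloid cells, passed no test. Its position is chr12:41242381-41284797 on the minus strand (rn5). Its mean signal lay between 6.32 at 24 h and 6.47 at 1 h, with 6.45 at 0 h and deposited SDs of 0.0869 to 0.157. The largest difference was -0.13 at 24 h (95% interval -0.26 to -0.00191, FDR 0.114), which passed when time points were centred (FDR 0.0393) or quantile normalized (FDR 0.0360). Its change at 1 h of 0.02 turned to -0.0280 and -0.0380 under the same settings. The table has no detection calls, and the signals of P2rx7 and Adora2b lie about the median of all probe sets at 0 h, 6.61, so a low expression in blood and a dim probe set cannot be told apart.

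P2ry2, a receptor for ATP and UTP that guides neutrophils towards sites of ATP release, was first called at 2 h and highest at 6 h. Its probe set lies at chr1:172227595-172241928 on the minus strand (rn5). The mean signal of P2ry2 at 0, 1, 2, 3, 6 and 24 h was 6.99, 7.06, 7.24, 7.65, 8.18 and 7.28. The deposited SD was 0.391 at 6 h and between 0.0715 and 0.181 at the other time points, so the rats were most unlike each other where P2ry2 was highest. It was not called at 1 h (0.07, FDR 0.576), was 0.25 higher at 2 h (FDR 0.0301), 0.66 higher at 3 h (FDR 1.3e-07) and 1.19 higher at 6 h (2.27-fold, SE 0.0968, FDR 2.85e-14). The 2 h call was lost when time points were centred on their medians (FDR 0.0607). The steps from 2 h to 3 h (0.41, FDR 0.00539) and from 3 h to 6 h (0.53, FDR 3.62e-04) were both called, and the fall of 0.90 from 6 h to 24 h (FDR 4.31e-10) was the largest of the tested steps among the 10 genes. With the variance of the compared time points alone, the steps into and out of 6 h were weaker but still called (FDR 0.0269 and 9.98e-05). The step from 2 h to 3 h then had an FDR of 5.49e-04. At 24 h 24.3% of the largest log2 change remained (FDR 0.0163).

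Over the 10 genes, 7 passed the time course F-test at FDR below 0.05, beside 55.5% of all probe sets, and 6 passed the p-value threshold that the study used, 5e-07, beside 13.5% of all. Both counts are from the model rebuilt here and are not membership of the study's own gene list. The 3 genes outside the first count were Adora2b, Adora3 and P2rx7, and the second count also left out Ada (time course FDR 2.87e-04). With quantile normalized means Adora2a had a p of 5.62e-07, which misses that threshold and makes the second count 5. Without the 24 h samples, which were drawn from the heart, 6 genes passed at FDR below 0.05, and the call lost was that of Ada (FDR 0.126). At 1 h, 4 genes were called higher than at 0 h and 1 lower, where 21.7% of all probe sets were higher and 15.4% lower. The 2 h counts were 6 and 1 (21.7% and 18.6% of all), those of 3 h 4 and 1 (27.3% and 19.2%), those of 6 h 5 and 1 (22.5% and 19.3%) and those of 24 h 5 and 1 (17.4% and 13.9%). The gene that was lower was Adora2a each time. These comparisons share the 0 h arrays. The median log2 change of the 10 genes was 0.12, 0.26, 0.27, 0.26 and 0.18 at 1, 2, 3, 6 and 24 h, and that of all probe sets was 0.05, 0.05, 0.07, 0.05 and 0.04. The steps between neighbouring time points called 2 of the 10 from 1 h to 2 h (8.78% of all probe sets), 1 from 2 h to 3 h (3.53%), 1 from 3 h to 6 h (4.78%) and 5 from 6 h to 24 h (18.9%). The 4.78% stands for 1319 probe sets, which became 737 with the variance of 3 h and 6 h only. The largest change came at 2 h in 4 genes, at 6 h in another 4, at 1 h in P2rx1 and at 24 h in P2rx7.

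**Figure D2:**
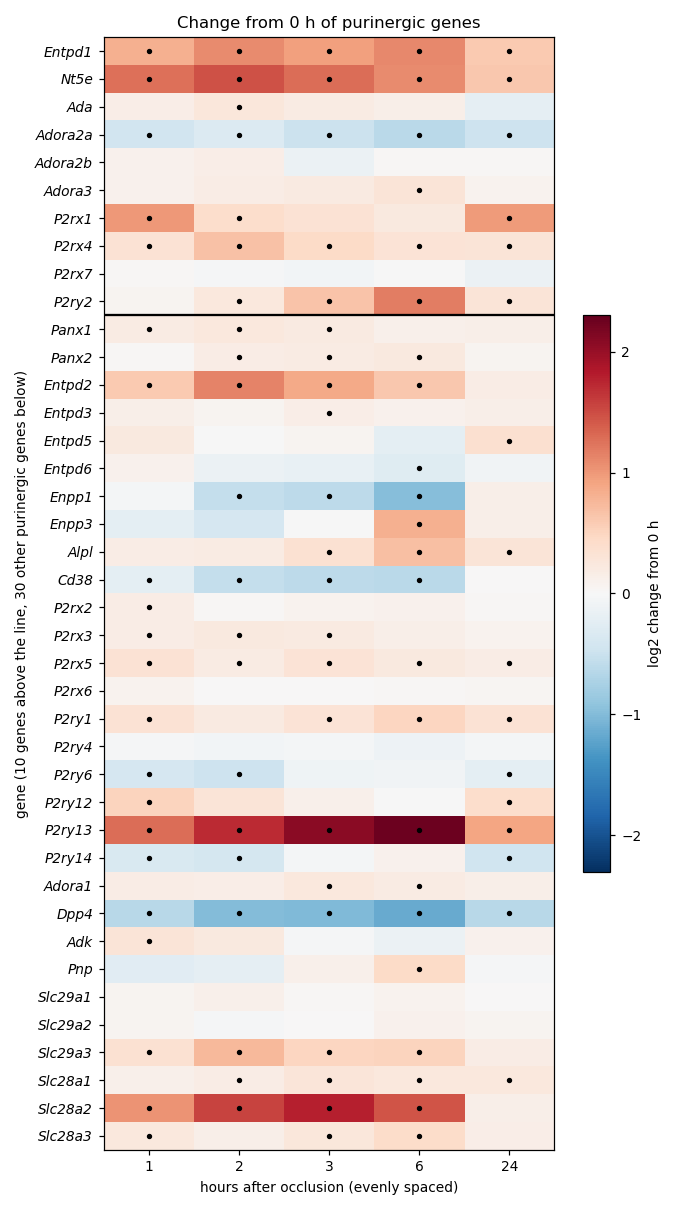
Log2 change from 0 h (colour, red higher and blue lower) at 1, 2, 3, 6 and 24 h (columns) for the 10 genes above the line and 30 other purinergic genes below it (rows). A black dot marks FDR below 0.05; Nt5e and Entpd1 are red in every column and Adora2a blue in every column, and below the line P2ry13 and Slc28a2 hold the strongest reds and Dpp4 and Enpp1 the strongest blues.

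Of 30 other genes of the same signalling system with a probe set, 22 passed the time course test, beside 55.5% of all probe sets. The list held release channels, hydrolases, receptors, nucleoside transporters and adenosine enzymes. At 1, 2, 3, 6 and 24 h 12, 9, 14, 13 and 7 of them were higher and 4, 5, 3, 4 and 3 lower, where 21.7%, 21.7%, 27.3%, 22.5% and 17.4% of all probe sets were higher and 15.4%, 18.6%, 19.2%, 19.3% and 13.9% lower. Of the 8 nucleotide hydrolases, Entpd2, which mainly turns ATP into ADP, came closest to Entpd1 and Nt5e, with means of 7.11 at 0 h and 8.24 at 2 h (1.14 higher, FDR 2.18e-15), and was not called at 24 h (0.18, FDR 0.104). Enpp1, which cuts ATP to AMP and pyrophosphate, moved the other way and fell by 0.98 at 6 h (FDR 4.69e-13). Enpp3, a surface marker of basophils, was 0.81 higher at 6 h (FDR 4.28e-04), with deposited SDs of 0.234 at 0 h and 0.261 at 6 h, and Alpl, a phosphatase of neutrophils, was 0.68 higher at 6 h (FDR 1.52e-08).

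Among the 6 other P2Y receptors, P2ry13, an ADP receptor, rose more than any of the 10 genes. Its mean at 0, 1, 2, 3, 6 and 24 h was 8.58, 9.86, 10.30, 10.66, 10.83 and 9.49, a rise of 4.76-fold at 6 h (log2 change 2.25, SE 0.102, FDR 8.8e-23). Of the 6 nucleoside transporters, Slc28a2, which carries adenosine and other purines into cells with sodium, was 3.46-fold higher at 3 h (1.79, FDR 1.62e-15) and back near its start at 24 h (0.14, FDR 0.437). A second probe set of Slc28a2 gave 1.74 at 3 h. Slc29a3, a transporter of lysosomes, was 0.75 higher at 2 h (FDR 6.62e-11). Dpp4, a surface peptidase of T cells that binds adenosine deaminase in humans, fell by 1.15 at 6 h (FDR 8.79e-12) while Ada itself was 0.13 above 0 h and not called (FDR 0.266). Of the other 4 P2X channels measured, P2rx5 had the largest change, 0.34 at 1 h (FDR 2.63e-06).

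Several of these genes lie close together in the rat genome, at most 144 kb apart, and differed in parts of their courses. They are named here for their position, after their values were seen, and whether other genes lie between them was not checked. P2rx4 and P2rx7 lie 28.0 kb apart on chromosome 12 on the same strand, and P2rx4 was called at all 5 later time points while P2rx7 was called at none. At 2 h their 95% intervals, 0.50 to 0.84 for P2rx4 and -0.16 to 0.09 for P2rx7, did not overlap. P2ry2 and the UDP receptor P2ry6 lie 22.8 kb apart on chromosome 1 on the same strand, and P2ry6 fell by 0.39 at 1 h (FDR 4.33e-05) and by 0.48 at 2 h (FDR 4.53e-07), before P2ry2 reached its high. From 2 h to 3 h P2ry6 rose by 0.38 (FDR 7.01e-04), a step at which P2ry2 rose too. P2rx1 and P2rx5 lie 144 kb apart on chromosome 10, and both had their largest rise at 1 h, 0.34 for P2rx5 and 1.00 for P2rx1, while at 24 h P2rx5 stood 0.18 and P2rx1 0.97 above 0 h. On chromosome 2 P2ry13 lies 24.2 kb from P2ry12 and 81.9 kb from P2ry14, and P2ry14 was lower at 2 h (-0.41, FDR 0.0133) when P2ry13 was 1.72 higher. P2ry12 was called higher at 1 h and 24 h, as P2ry13 was. The differences between neighbours were not themselves tested.

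**Figure D3:**
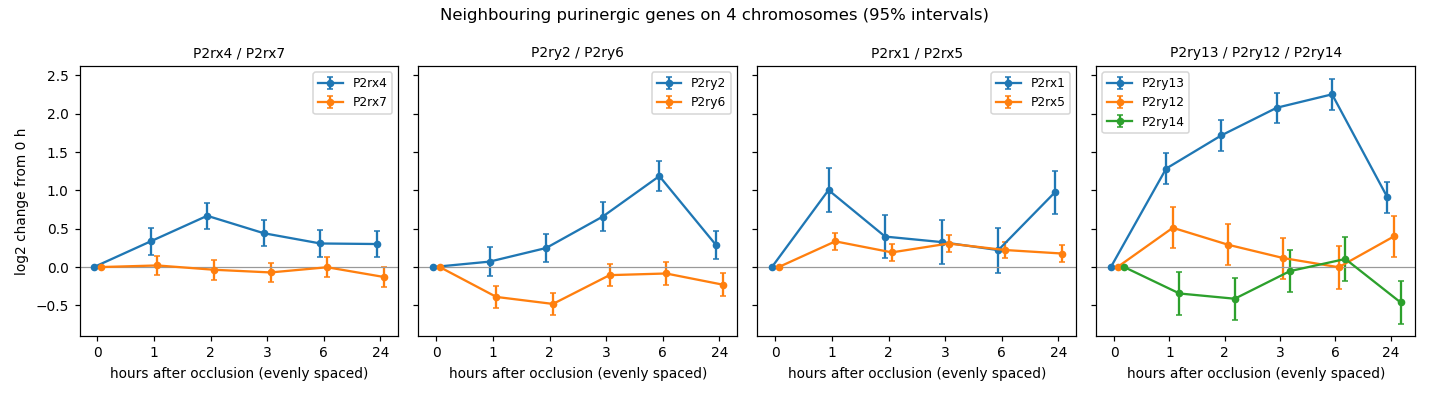
Log2 change from 0 h (y axis) against hours after occlusion (x axis, evenly spaced) for purinergic genes that lie close to each other, 1 panel for each chromosome region. Points are differences of deposited means and bars their 95% intervals from the limma model; P2rx4, P2ry2 and P2ry13 rise while P2rx7 stays near 0 and P2ry6 and P2ry14 fall at 1 h and 2 h.

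Whole blood is a mixture, and in bulk samples fewer cells of a type and less RNA per cell cannot be told apart. Marker lists moved strongly over the same hours. Their counts stand beside 21.7%, 21.7%, 27.3%, 22.5% and 17.4% of all probe sets higher at 1, 2, 3, 6 and 24 h. The shares lower were 15.4%, 18.6%, 19.2%, 19.3% and 13.9%. Of 10 neutrophil markers 9 were higher at all 5 later time points, the exception being Ltf, and the log2 of their summed signal at 0, 1, 2, 3, 6 and 24 h was 13.77, 14.90, 15.36, 15.26, 15.43 and 14.55. The median change of the neutrophil list was 0.90, 1.47, 1.33, 1.65 and 0.80 at 1, 2, 3, 6 and 24 h, beside 0.82, 1.08, 0.95, 1.11 and 0.60 for Entpd1 and 1.27, 1.46, 1.29, 1.09 and 0.63 for Nt5e. Mmp8, a collagenase stored by neutrophils, rose by 1.07 at 2 h and Cxcr2, a neutrophil chemokine receptor, by 1.51. The part of the neutrophil signal in the rise of the ectoenzymes was not tested.

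Most markers of lymphocytes went down. All 10 T cell markers were lower at 2, 3, 6 and 24 h and 9 at 1 h, with a median change of -1.19 at 6 h, and their summed signal on the log2 scale went from 13.41 at 0 h to 12.16 at 6 h and 12.67 at 24 h. Cd8a and Cd3g fell by 1.28 and 1.26 at 6 h, beside a fall of 0.62 for Adora2a, which T cells express. Of 10 B cell markers 9, 10, 9, 9 and 7 were lower at 1, 2, 3, 6 and 24 h (median -2.0 at 2 h and -0.44 at 24 h; Bank1 fell by 2.04 and Cd79b by 2.37 at 2 h), with summed log2 signals of 13.30 at 0 h, 11.50 at 3 h and 12.79 at 24 h. Of 7 NK cell markers 2, 5, 6, 6 and 6 were lower at 1, 2, 3, 6 and 24 h, with a median of -0.79 and falls of 1.11 for Klrk1 and 1.02 for Prf1 at 3 h. Ncr1, named after its values were seen, was the 1 NK cell marker called higher at 1, 2 and 6 h, by 0.24, 0.22 and 0.34. The summed log2 signal of the NK cell list went from 12.45 to 11.57 at 3 h and 11.67 at 24 h. The part of these lists in the fall of Adora2a was not tested.

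Monocyte markers were mixed: of 7, the numbers higher at 1, 2, 3, 6 and 24 h were 1, 3, 3, 3 and 0 and those lower 5, 3, 3, 3 and 3, with a median of -0.40 at 1 h and summed log2 signals between 13.60 and 13.98. Lyz2 was 0.30 higher at 2 h and Ccr2 0.40 higher. Of 8 platelet markers 5 passed the time course test, beside 55.5% of all probe sets. The numbers of them called higher at 1, 2, 3, 6 and 24 h were 4, 3, 2, 0 and 5, where 21.7%, 21.7%, 27.3%, 22.5% and 17.4% of all probe sets were higher, with median changes of 0.27, 0.20, 0.12, 0.06 and 0.28, and a summed log2 signal of 14.84 at 0 h and 14.99 at 1 h. The most strongly hybridizing platelet markers, Pf4 and Clec1b, stood 0.05 and 0.04 above 0 h at 1 h, but their signals at 0 h, 13.06 and 13.09, lie near the highest mean of the table, 13.62. Gp5 and Itga2b, named after their values were seen and with signals of 9.86 and 9.49 at 0 h, were 0.54 and 0.42 higher at 1 h. P2ry12, the ADP receptor of platelets, named after its values were seen, was 0.51 higher at 1 h (FDR 0.0023), 0.00 from its start at 6 h and 0.40 higher at 24 h (FDR 0.0190).

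The 9 erythroid genes were measured by 8 probe sets, with summed log2 signals from 15.61 to 15.79. Of the 8, 3, 0, 1, 0 and 3 were higher at 1, 2, 3, 6 and 24 h (21.7%, 21.7%, 27.3%, 22.5% and 17.4% of all probe sets). Those lower were 0, 0, 0, 3 and 0 (15.4%, 18.6%, 19.2%, 19.3% and 13.9% of all). The globin probe sets of Hba1, Hba2 and Hbb hold or lie near the highest mean of the table, so nothing is read from their small differences. Slc4a1, named after its values were seen, stood at 0.34 at 1 h, -0.23 at 6 h and 0.58 at 24 h. Basophil and eosinophil markers had summed log2 signals from 8.87 to 9.24. Of 7, the numbers lower at 1, 2, 3, 6 and 24 h were 0, 3, 3, 3 and 2 (15.4%, 18.6%, 19.2%, 19.3% and 13.9% of all probe sets). Those higher were 2, 1, 2, 0 and 1 (21.7%, 21.7%, 27.3%, 22.5% and 17.4% of all). At 6 h, when the basophil marker Enpp3 was higher, none of the 7 was called higher: Ms4a2, Ccr3, Fcer1a, Cpa3 and Epx, named here after their values were seen, stood at -0.83, -0.67, -0.31, -0.28 and 0.13, and Gata2 and Prg2 at 0.00 and 0.11. Heart muscle markers, of interest because the 24 h blood was drawn from the heart, were below the table's median in 3 of 4 at every time point, and their summed log2 signal was 8.29 at 0 h, between 8.39 and 8.43 from 1 h to 6 h and 8.41 at 24 h. In tail vein blood 1, 2, 3 and 1 of the 4 were called higher at 1, 2, 3 and 6 h (21.7%, 21.7%, 27.3% and 22.5% of all probe sets). At 24 h 3 of the 4 were called higher (17.4% of all). Their changes at 24 h were 0.23 for Tnni3, whose probe set is shared with Dnaaf3, 0.22 for Myh6, 0.14 for Actc1 and 0.03 for Tnnt2. Tnni3 and Myh6 had their largest change at 24 h, Actc1 at 3 h and Tnnt2 at 1 h. The part of the sampling site in these changes was not tested. The part of platelets and red cells in the course of P2rx1 was not tested.

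**Figure D4:**
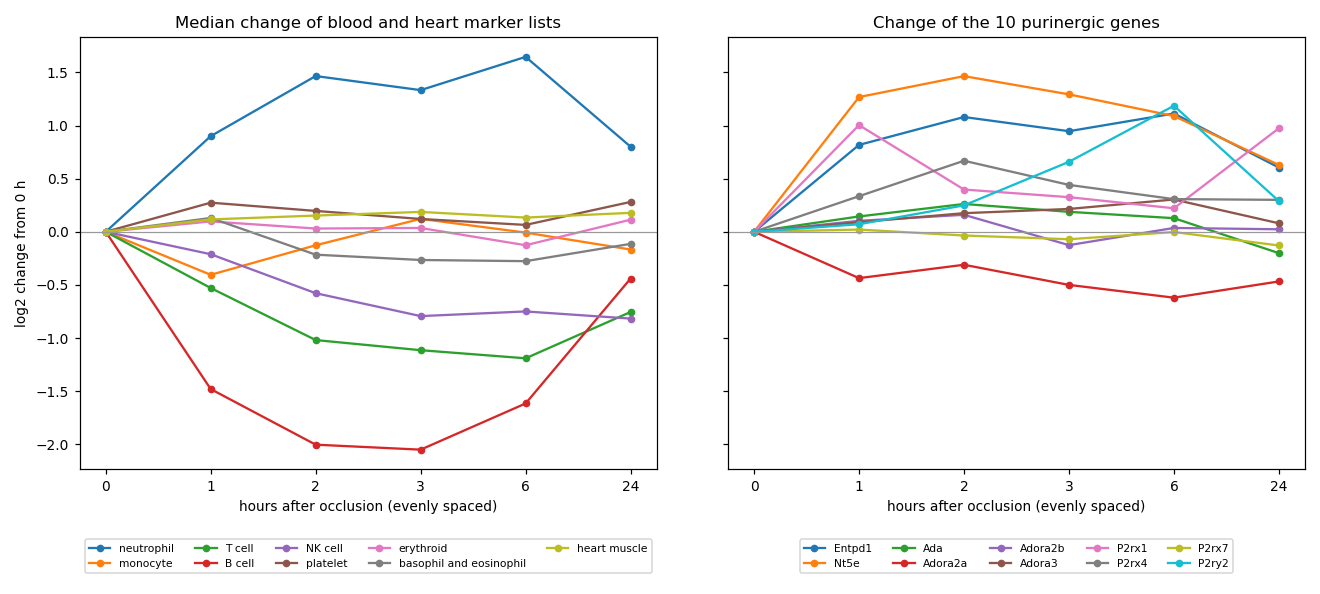
Left, median log2 change from 0 h (y axis) of each list of cell type markers against hours after occlusion (x axis, evenly spaced). Right, the change of each of the 10 genes on the same scale; the neutrophil list is high at all later time points as are Entpd1 and Nt5e, the B cell list lies lowest from 1 h to 6 h, and P2rx1 alone of the genes is high at 1 h, low at 6 h and high again at 24 h.

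The probe sets nearest in time course were found by the Euclidean distance between the 5 log2 changes, over 20437 probe sets with 1 gene symbol. For Entpd1 they were the neutrophil collagenase Mmp8 (distance 0.126), Fam63a (0.158) and Megf9 (0.185), and Mmp8 changed by 0.80, 1.07, 0.98, 0.99 and 0.59. The signal of Mmp8, 13.01 to 13.29 from 1 h to 6 h, also lies near the highest mean of the table, and the part of that limit in its changes was not tested. For Nt5e they were Pirb (0.317), an inhibitory receptor of myeloid and B cells, Zdhhc2 (0.332) and Cyp4f18 (0.349). For P2ry2 they were Xrcc5 (0.194), Stk3 (0.217) and Card10 (0.227), which were 1.10, 1.15 and 1.09 higher at 6 h. For P2rx1, looked up after its values were seen, the nearest was Mapk10 at a distance of 0.304, with 0.74 at 1 h, 0.09 at 6 h and 0.91 at 24 h, followed by Acer2 (0.392) and Pmm1 (0.454). These distances describe likeness over 5 changes that share the 0 h arrays.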

How the data were processed

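Blood mRNA of 8 SHR rats was hybridised to 47 Affymetrix RaGene arrays. Per the file headers, the authors made log2 RMA values for each probe set, which are background corrected and quantile normalized between arrays, so a change is relative to the other probe sets. The deposited table gives the mean and SD of each time point on the log2 scale, with symbols and positions of the annotation on rn5. RNA was extracted from blood cell pellets in batches not analysed here. The table's 47 single-array columns are named by running numbers that no label ties to a rat or time, and were not used, and neither were 19 columns of the authors' comparisons (fold changes, p-values and FDRs against 0 h and F-tests).

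A one-way model was rebuilt in limma 3.58.1 (R 4.3.3) from each time point's deposited mean, SD and number of arrays. The variance was pooled over the 6 time points (41 residual and 5.71 prior degrees of freedom), and p-values were adjusted by Benjamini-Hochberg over 27596 probe sets with an FDR threshold of 0.05. Arrays were treated as independent, although each rat was sampled repeatedly. The model was tested on simulated data for 2 h against 0 h in which 200 of 27596 probe sets changed, 50 by each size. It recovered 38% of changes of 0.25, 90% of 0.5, 100% of 1 and 92% of -0.5. In the data 11139 probe sets were called at 2 h, so these shares do not give the recovery reached there. The submitters' processing notes also name limma. Precision is limited by the 7 or 8 arrays of a time point, and signal over background was not assessed.

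The 10 genes and all lists were chosen with earlier results of these data known. Other genes, except Ltf, the heart muscle markers and those said to be named after their values were seen, were named by rule: the 8 purinergic genes that changed most, the 3 nearest profiles of the 3 genes with the largest change, and the 2 markers of each list with the highest mean. Alternatives were median centring, quantile normalization of the means, leaving out the lowest 25% of probe sets, no moderation, a trended robust prior, the variance of the compared time points only, the F-test without 24 h, and the second probe set of Adora3. Upstream windows came from RefSeq (GRCr8) for 9 of the 10 genes. Python 3.11.15 and matplotlib 3.10.9 were used.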

Additional observations from a re-analysis of the deposited data

How the results depend on the processing

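Of 126 counts of called genes or probe sets recomputed under the alternatives, 125 stayed within 1.5 times of the value given. The exception was the number of probe sets called between 3 h and 6 h, 1319, which became 737 with the variance of these time points only; the cause was not tested. Of 305 recomputed changes of the 10 genes from 0 h, 286 kept direction and call, 10 became called, 2 lost their call and 7 changed sign. All 7 sign changes were of values that were not called. They were Adora2b at 6 h (-0.00477) and 24 h (-0.0230) and P2rx7 at 1 h (-0.0380) with quantile normalized means, Adora2b at 24 h (-0.0180) and P2rx7 at 1 h (-0.0280) with centring, and Adora3 at 3 h (-0.000719) and 24 h (-0.0159) with its second probe set. The calls lost were P2ry2 at 2 h with centring and Adora3 at 6 h with its second probe set. With quantile normalized means 5 genes in place of 6 passed the study's p-value threshold, the one lost being Adora2a. Without the 24 h samples Ada was not called over the time course. The time points' medians differ from 0 h by 0.029 to 0.049. The step of Entpd1 from 1 h to 2 h was gained under 4 of 6 alternatives. The single-array columns are named by running numbers that no label ties to a rat or time, and a match by their order or values was not made. Single rats were therefore not left out. No paired analysis was possible because it needs that match.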
